A study of Mus musculus with 38 samples.

Results

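RNA of microdissected cortical collecting ducts (CCDs), the tubule segment of the kidney cortex where vasopressin adjusts water reabsorption, was compared between mice titled MT, which carry a mutation of β-catenin at S552, and mice titled WT, wild type at that site. The comparison used 24 of the 38 samples of the series, 12 libraries per group, and the titles gather the libraries of a group by 3 into units numbered from 1 to 4. The 3 libraries of a unit were averaged first, so that every value below rests on 4 units per group. Of 55416 genes listed, the 15013 with a mean abundance of 1 TPM or more over the 8 units were kept (27.1%). TPM is a transcript abundance scaled for transcript length and for the library total. Just inside this limit lay Arhgap25 and Sarm1, each with a mean of 1 TPM, and just outside it lay Nos3, with a mean of 0.998 TPM.

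The labels leave several points unsettled. Only the titles separate MT from WT: all 24 samples are labelled as dDAVP treated, dDAVP being a vasopressin analogue that acts on V2 receptors, and as wild-type mice of genotype C57BL/6, whereas the deposited table is named as one without vasopressin. Whether the agonist was given is therefore unknown, although both groups carry the same treatment label and titles that give 5 days. How the mutant line was made, which residue replaces the serine, whether every cell carries it, the age of the mice, and whether a unit is 1 animal are not given in the sources used here. The p-values accordingly measure the spread between numbered units, which may be partly technical.

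β-Catenin has a structural role at adherens junctions, where it ties cadherins to α-catenin and actin, and a signalling role as the coactivator of TCF/LEF transcription factors. Without a Wnt signal the cytoplasmic pool is marked for degradation by a destruction complex built on axin and APC. S552, a serine, is a target site of protein kinase A, the kinase that acts downstream of vasopressin and cAMP in principal cells, and its phosphorylation has been linked to nuclear β-catenin. Principal cells carry the water channel AQP2 and the epithelial sodium channel; the intercalated cells between them secrete acid or bicarbonate.

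Across the transcriptome, MT and WT ducts differed little, and no gene passed the test. With limma's moderated test on log2(TPM + 1) and Benjamini-Hochberg adjustment, 0 of 15013 genes had an adjusted p under 0.05 (0%), and the smallest adjusted p was 0.376. At an unadjusted p under 0.05, a rate of 5% would give 751 genes. There were 683, or 4.55%, of which 395 (2.63%) were higher and 288 (1.92%) lower in MT. After rescaling by median of ratios this split turned to 270 higher and 393 lower. The 4 MT values lay wholly outside the 4 WT values in 453 genes (3.02%), above them in 278 (1.85%) and below them in 175 (1.17%). Most log2 fold changes were small, with 94.8% of genes within 0.5 of 0, a median of 0.01 and a median size of 0.08. The 95% interval lay inside a log2 fold change of 1 in either direction for 90.7% of genes, and for 77.0% of genes of 1 to 3 TPM. The log2(TPM + 1) scale understates the fold change of low genes, so for them such an interval need not exclude a doubling. The median half-width of the 95% interval narrowed from 0.48 in genes of 1 to 3 TPM to 0.17 in genes of 30 to 100 TPM. A p that misses the threshold does not show that values did not differ.

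**Figure D1:**
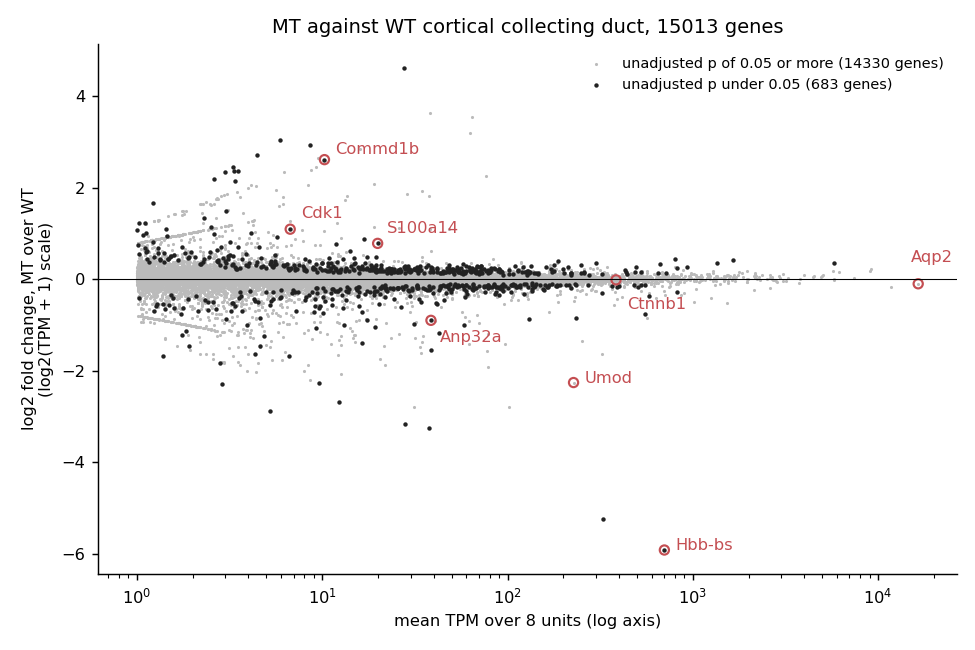
Log2 fold change of MT over WT (vertical axis) against mean TPM over the 8 units (log axis) for 15013 genes, black where the unadjusted p was under 0.05 and grey otherwise, with genes discussed in the text circled. Points spread widest at low TPM, Ctnnb1 and Aqp2 lie near 0, and the haemoglobin gene Hbb-bs and the thick ascending limb gene Umod lie far below.

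Libraries resembled each other only slightly more within units than across groups. The median SD between unit means of a group was 0.156 on the log2 scale, against 0.11 from the spread of libraries alone. The median correlation of log2(TPM + 1) was 0.964 between libraries of 1 unit, 0.959 between units of the same group and 0.959 between groups, and 10 of 24 libraries had their best match inside their own unit. Each library listed 13572 to 16091 genes at 1 TPM or more. The male-specific genes Ddx3y, Uty, Kdm5d and Eif2s3y were present in all 8 units, with Ddx3y at 19.7 to 25.9 TPM, and Xist did not exceed 0.19 TPM in any unit. Nnt, part of which is deleted in the C57BL/6J substrain, is listed under 2 identifiers, and the more abundant one stood at 90.5 to 132.9 TPM over the 8 units (log2 fold change 0.03, 95% interval -0.24 to 0.30). Gene-level TPM does not show which of its exons were present.

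The targeted gene itself was expressed at a similar level in both groups. Ctnnb1, encoding β-catenin (ENSMUSG00000006932, chromosome 9, 120933400 to 120960507, GRCm38.p6), was at 371.6, 385.0, 399.6 and 392.1 TPM in WT units 1 to 4 and at 368.0, 376.1, 382.4 and 406.6 TPM in MT units 1 to 4. The ranges overlapped almost fully. Means were 387.1 ± 11.9 and 383.3 ± 16.7 TPM (SD over 4 units each). On the log2 scale MT was at -0.01 (95% interval -0.12 to 0.09, limma adjusted p = 0.999). A change of 1 residue need not alter the amount of transcript, and gene-level TPM does not read the codon, so these values do not check the group labels. Among genes near Ctnnb1, an unadjusted p under 0.05 was found by limma in 0 of 43 tested within 2 Mb, 5 of 72 within 5 Mb (6.94%), 6 of 95 within 10 Mb (6.32%) and 10 of 225 within 20 Mb (4.44%), against 4.55% of all genes.

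The machinery that degrades β-catenin showed no member past the threshold. All 10 tested genes of the destruction complex had an unadjusted p above 0.05, 4 above and 6 below a log2 fold change of 0, with a median of -0.02 against 0.01 over all genes. The scaffold Axin1 was at 43.7, 44.1, 41.3 and 50.8 TPM in WT and 44.4, 44.9, 43.1 and 34.5 TPM in MT, where unit 4 stood below the rest (log2 -0.11, 95% interval -0.33 to 0.11). The tankyrase gene Tnks, whose product marks axin for degradation, had a log2 fold change of 0.11 (95% interval -0.06 to 0.28).

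At the membrane, Wnt ligands and receptors gave a count near that of all genes. Of 36 ligand, receptor and secretion genes, 23 reached 1 TPM, and 1 of these had an unadjusted p under 0.05 on the higher side, against 2.63% of all genes. It was Lrp6, a Wnt coreceptor, at 30.2, 36.7, 29.4 and 29.0 TPM in WT and 36.9, 35.9, 37.1 and 34.7 TPM in MT. The WT value of unit 2 lay inside the MT range and the other 3 WT values lay below it (log2 0.21, 95% interval 0.03 to 0.39, limma unadjusted p = 0.0292). Fzd2, a Wnt receptor expressed near the limit, had means of 1.87 ± 0.16 and 1.38 ± 0.18 TPM with no overlap of units (log2 -0.27, limma unadjusted p = 0.0719). Wnt5a, Wnt11, Lgr5, Rspo1 and Rspo3 were among the 13 members below 1 TPM.

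Of the 7 tested Wnt antagonists 5 lay on the lower side, with a median log2 fold change of -0.26 and none under an unadjusted p of 0.05. Sostdc1, a secreted BMP and Wnt antagonist, was at 148.2, 122.9, 135.4 and 117.7 TPM in WT and 138.4, 91.5, 104.5 and 95.3 TPM in MT. MT unit 1 lay within the WT range and the other 3 MT units lay below it (log2 -0.30, 95% interval -0.60 to 0.00). The secreted Dkk3 had means of 33.0 ± 5.99 and 27.1 ± 1.56 TPM (log2 -0.26, 95% interval -0.53 to 0.01). Znrf3, a ubiquitin ligase that removes Wnt receptors and is itself a Wnt target, ranged from 5.71 to 9.39 TPM in WT and from 2.06 to 8.35 TPM in MT, a wide spread among mutant units that overlapped the controls.

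Transcriptional targets of β-catenin gave no uniform shift. The classical targets Axin2 and Lef1 were barely expressed: Axin2 averaged 0.398 ± 0.202 TPM in WT and 0.389 ± 0.189 TPM in MT, and Lef1 averaged 0.412 ± 0.210 and 0.358 ± 0.202 TPM. Both were under the minimum and were not tested. Of 26 listed targets 10 were tested, 6 with a log2 fold change above 0 and 4 below, none with an unadjusted p under 0.05. Cyclin D1, encoded by Ccnd1, was at 105.0, 116.8, 107.5 and 104.7 TPM in WT and 177.7, 138.6, 133.4 and 95.6 TPM in MT, so that 3 MT units stood above every WT unit and unit 4 stood below them all (log2 0.29, 95% interval -0.07 to 0.66). Birc5, a mitotic regulator also counted among the targets, averaged 2.85 ± 1.09 and 4.84 ± 1.61 TPM (log2 0.61, 95% interval -0.02 to 1.25). Among the 16 tested TCF factors and β-catenin cofactors none had an unadjusted p under 0.05. The histone acetyltransferase Crebbp had the smallest p of them, with a log2 fold change of -0.24 (95% interval -0.53 to 0.05).

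In the adherens junction, the other place of β-catenin, 10 genes were tested and 1 had an unadjusted p under 0.05, against 4.55% of all genes. Afdn, encoding the actin-binding junction protein afadin, was at 100.2, 90.05, 100.2 and 93.8 TPM in WT and 92.3, 86.0, 79.1 and 76.4 TPM in MT. Only MT unit 1 reached into the WT range (log2 -0.20, 95% interval -0.36 to -0.04, limma unadjusted p = 0.018). The list as a whole had a median log2 fold change of 0.02. Ctnnd1, which encodes p120-catenin, the regulator of cadherin stability, lay slightly on the other side (log2 0.08, 95% interval -0.05 to 0.20).

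**Figure D2:**
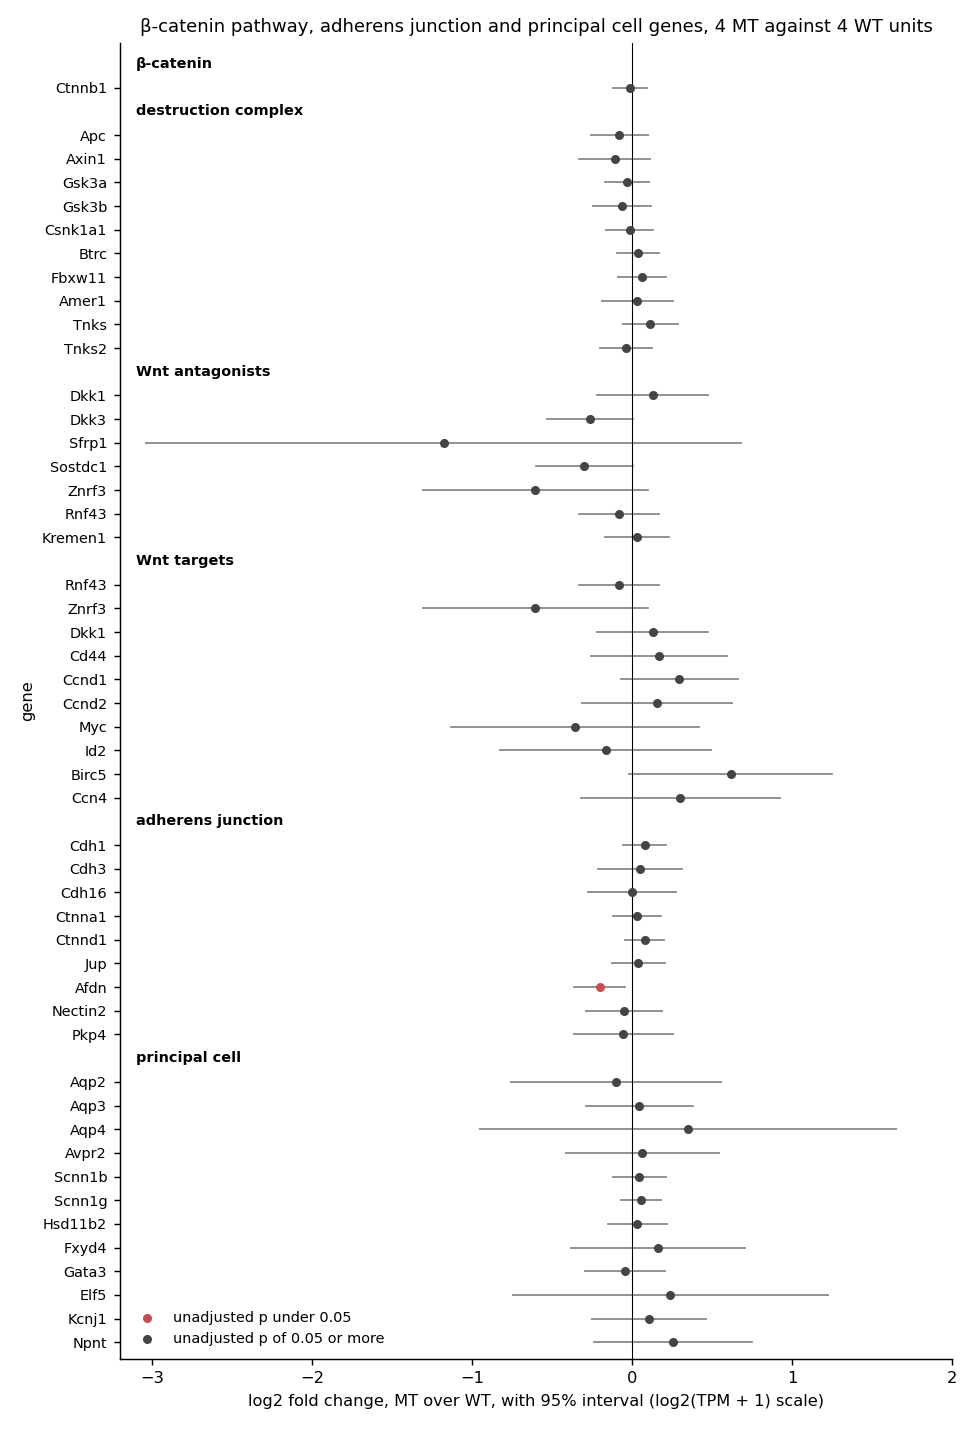
Log2 fold change of MT over WT (points) with its 95% interval (lines) for tested genes of 6 sets, β-catenin itself, the destruction complex, Wnt antagonists, Wnt targets, the adherens junction and principal cell markers, without the Wnt receptor and transport lists; genes on 2 lists are drawn in both, and red marks an unadjusted p under 0.05. Afdn is the only red point among these sets, and the intervals of Aqp4 and Sfrp1 are the widest.

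Principal cell identity genes gave no difference beyond the spread of the units, which was large for the water channels. All 12 principal cell markers were tested and none had an unadjusted p under 0.05, 10 with a log2 fold change above 0 and a median of 0.06. Aqp2 was at 11230, 27630, 15450 and 14710 TPM in WT and at 22500, 13690, 12220 and 14200 TPM in MT. WT unit 2 and MT unit 1 stood high and the other 6 units lay near each other (log2 -0.10, SE 0.29, 95% interval -0.75 to 0.55). The high level was shared by the 3 libraries of WT unit 2, which lay between 25750 and 30070 TPM. Aqp4, a basolateral water channel, was at 80.4, 406.5, 115.3 and 90.7 TPM in WT and 370.6, 181.8, 147.4 and 92.0 TPM in MT, high in the same pair of units. Avpr2, the V2 vasopressin receptor, followed that order with 1463 TPM in WT unit 2 and 1339 TPM in MT unit 1 against 721.4 to 1035 TPM elsewhere. Aqp3, the other basolateral water channel, had a log2 fold change of 0.05 (95% interval -0.29 to 0.38). The direction of the Aqp2 difference was not stable, and it turned to 0.13 after quantile normalization.

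The sodium and potassium transport genes varied less between units. Scnn1a, which encodes the α subunit of that sodium channel, was at 414.1, 376.5, 400.6 and 396.0 TPM in WT and 371.3, 406.7, 477.7 and 481.4 TPM in MT, where units 3 and 4 stood above all others (log2 0.12, 95% interval -0.08 to 0.32). Its partners Scnn1b and Scnn1g had log2 fold changes of 0.05 (95% intervals -0.12 to 0.21 and -0.07 to 0.18). Kcnj1, the apical potassium channel ROMK, had a log2 fold change of 0.11 (95% interval -0.25 to 0.46). Of 21 tested genes of principal cell transport and hormone response, 1 had an unadjusted p under 0.05, against 4.55% of all genes. It was the potassium channel gene Kcnj16, at 158.3 to 179.8 TPM in WT and 173.1 to 215.4 TPM in MT (log2 0.18, limma unadjusted p = 0.0384). Fold changes over 1.5 times were outside the 95% interval for all of Scnn1a, Scnn1b, Scnn1g and Kcnj1.

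For the route from the V2 receptor to the apical membrane, counts were near those of all genes. Of 23 tested cAMP and PKA components none had an unadjusted p under 0.05, with a median log2 fold change of 0.03; the anchoring protein gene Akap7 (log2 0.21, 95% interval -0.02 to 0.44) and the phosphodiesterase gene Pde3b (log2 0.18, 95% interval -0.05 to 0.40) had the smallest p. Among 21 tested AQP2 trafficking genes 1 was lower and 1 higher at an unadjusted p under 0.05, against 1.92% and 2.63% of all genes. The lower one, Stx4a, a target-membrane SNARE, was at 70.2, 68.1, 67.2 and 61.4 TPM in WT and 62.1, 58.4, 47.4 and 46.3 TPM in MT. MT unit 1 alone overlapped the WT range (log2 -0.32, limma unadjusted p = 0.0122). The higher one, Rab5a, a GTPase of early endosomes, averaged 75.9 ± 5.48 and 85.3 ± 3.66 TPM (log2 0.17, limma unadjusted p = 0.0238). CREB and cAMP target genes lay below 0 in 14 of 17 tested, with a median of -0.07 and none under an unadjusted p of 0.05.

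Intercalated cell genes showed no shift between acid-secreting and bicarbonate-secreting types beyond the spread of units. All 6 type A markers lay above 0 (median 0.13) and all 4 type B markers below 0 (median -0.05), none with an unadjusted p under 0.05. Slc4a1, the type A anion exchanger, was at 353.1, 679.3, 317.0 and 453.5 TPM in WT and 573.1, 527.7, 422.6 and 395.6 TPM in MT (log2 0.14, 95% interval -0.39 to 0.67). Slc26a4, the type B exchanger pendrin, was at 1901, 1230, 2024 and 1704 TPM in WT and 1415, 1599, 1682 and 1884 TPM in MT (log2 -0.04, 95% interval -0.40 to 0.32). In both genes the MT units lay inside the WT range. Foxi1, the transcription factor that specifies these cells, had a log2 fold change of 0.01 (95% interval -0.39 to 0.41), which turned to -0.02 after rescaling by median of ratios. In bulk ducts, a different number of cells of a type and a different amount of RNA per cell cannot be told apart.

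The gene of smallest p was Anp32a, which encodes an acidic nuclear phosphoprotein that binds histones and inhibits phosphatase 2A (ENSMUSG00000032249, chromosome 9, 62341343 to 62378804, GRCm38.p6). Its 4 WT units were at 44.3, 48.2, 55.0 and 54.7 TPM and its 4 MT units at 29.7, 28.6, 26.7 and 21.8 TPM. The groups did not overlap, and the lowest WT unit stood well above the highest MT unit. Mean abundance was 50.5 ± 5.23 TPM in WT and 26.7 ± 3.51 TPM in MT (SD, n = 4), 0.536 of the WT level on the log2(TPM + 1) scale, with a log2 fold change of -0.90 (SE 0.11, 95% interval -1.15 to -0.65). By limma the unadjusted p was 2.5e-05 and the adjusted p 0.376. Among single libraries the WT values ran from 31.5 to 66.4 TPM and the MT values from 18.6 to 34.0 TPM. In another fit the 24 libraries entered as such, with the unit as a random effect and 1 shared correlation of 0.229 within units. The p of that fit can be too small for a gene whose units differ more than this. There, Anp32a was the one gene past the threshold (log2 -0.89, limma adjusted p = 0.00141). Its adjusted p over the alternatives otherwise went up to 1, while its log2 fold change stayed between -1.01 and -0.79. It lies on the same chromosome as Ctnnb1, outside the 20 Mb window above.

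Among the 20 named genes of smallest p, which are described because of their rank and did not pass, 13 were higher and 7 lower in MT and the units did not overlap in any. S100a14, a calcium-binding protein of epithelia, was at 15.1, 15.5, 11.7 and 15.3 TPM in WT and 23.9, 22.5, 29.5 and 25.9 TPM in MT (log2 0.78, SE 0.11, limma adjusted p = 0.536). Each MT unit was above each WT unit, and WT unit 3 stood apart below. Ctla2a, an inhibitor of cathepsin-like proteases, was at 13.3, 13.2, 13.9 and 14.4 TPM in WT and 9.14, 7.68, 10.0 and 9.03 TPM in MT (log2 -0.57, SE 0.08, limma adjusted p = 0.536). Over the alternatives the log2 fold change of Ctla2a ran from -0.696 to -0.056. Dus4l, a tRNA dihydrouridine synthase, averaged 11.9 ± 1.94 and 7.32 ± 0.88 TPM. Gnb4, a G-protein β subunit, averaged 51.6 ± 2.38 and 42.0 ± 2.57 TPM.

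Several abundant genes on that list differed by a small but even step. Hnrnpa2b1, an RNA-binding protein of splicing and transport, was at 718.4, 800.2, 740.3 and 747.6 TPM in WT and 840.2, 891.8, 931.2 and 918.9 TPM in MT (log2 0.25, SE 0.05). Chmp5, an ESCRT-III component of endosomal sorting, was at 170.5 to 193.5 TPM in WT and 211.0 to 219.4 TPM in MT (log2 0.23). Cbr2, a mitochondrial carbonyl reductase, averaged 161.4 ± 7.67 and 214.2 ± 25.8 TPM (log2 0.40). In each of the 3 every MT unit stood above every WT unit. Further genes with the same pattern were Ube2e1, a ubiquitin-conjugating enzyme (log2 0.24), Mthfd2l of mitochondrial folate metabolism (0.33), Dynlt3, a dynein light chain (0.29), Etfrf1, a regulator of electron transfer flavoprotein (0.27), Tubb5, a β-tubulin (0.22), and Smim8 (0.24). Wdr55 (-0.22) and Pakap (-0.27) were on the lower side. Tubb5 was at -0.04 when only library 1 of each unit was used. Pakap is listed under 2 identifiers at the same place, between which reads could be split.

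Commd1b had the largest fold change of the 20 and is uncertain. It averaged 2.58 ± 2.28 TPM in WT and 18.0 ± 5.02 TPM in MT (log2 2.61, SE 0.45, limma adjusted p = 0.969). It is a near copy of Commd1, a gene of copper and NF-κB regulation that stood at 304.8 to 353.0 TPM in the 8 units, so its reads could have been shared with that gene. Single libraries were at 0 or close to it in both groups: MT unit 1 held 0, 22.4 and 18.9 TPM and MT unit 2 held 0, 30.6 and 18.4 TPM.

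**Figure D3:**
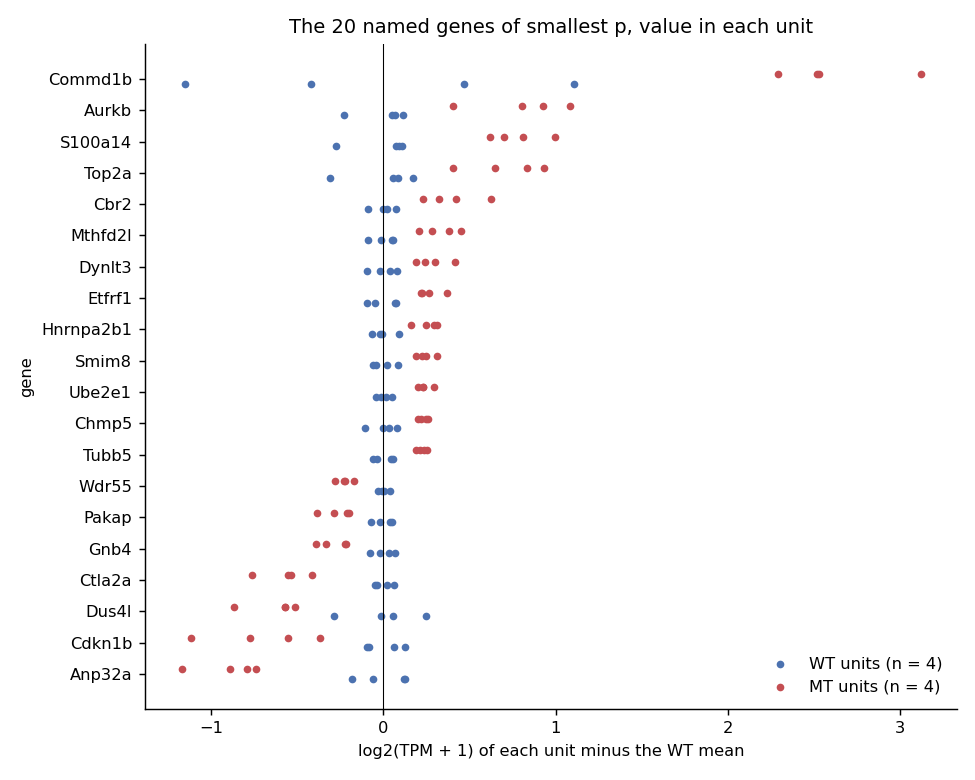
Values of the 4 WT units (blue) and 4 MT units (red) for the 20 named genes of smallest p, as log2(TPM + 1) minus the WT mean of the gene. The groups do not overlap in any of the 20, which were chosen by p. Commd1b spreads over the widest range and Anp32a lies lowest among MT values.

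Genes of DNA replication and mitosis lay on the higher side in MT nearly throughout, at low abundance. These genes are switched on as cells enter S phase, and again before division; E2F factors drive the earlier group, and the DREAM and B-MYB complexes act through CHR elements on the later one. Of 41 listed S and G2/M genes 37 were tested, 35 of them with a log2 fold change above 0 and 14 with an unadjusted p under 0.05, all 14 higher, or 14 of 37 against 2.63% of all genes. In 10 of the 37 the MT units lay wholly above the WT units, against 1.85% of all genes. The median log2 fold change was 0.34, against 0.01 over all genes, and none of the 37 passed the adjusted threshold. The summed abundance of the list was 365.8, 310.2, 354.5 and 307.6 TPM in WT units 1 to 4 and 415.1, 406.4, 377.5 and 384.2 TPM in MT units 1 to 4, without overlap. Over single libraries it ran from 286.8 to 404.5 TPM in WT and from 305.9 to 477.9 TPM in MT. Members of this list are expressed together and do not count as independent observations. The list was also written with earlier results of these data known, so its counts set against all genes are descriptive and not a test.

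Among the mitotic genes, Aurkb, the kinase of the chromosomal passenger complex, was at 2.26, 2.15, 2.11 and 1.57 TPM in WT and 5.38, 4.73, 4.26 and 2.99 TPM in MT (log2 0.81, SE 0.17, limma unadjusted p = 0.00105). Top2a, the topoisomerase that untangles sister chromatids, was at 2.81, 2.52, 2.59 and 1.73 TPM in WT and 5.47, 5.03, 4.31 and 3.47 TPM in MT (log2 0.70, SE 0.16, limma unadjusted p = 0.00187). Cdk1, the kinase of mitotic entry, was at 6.79, 4.08, 4.16 and 1.54 TPM in WT and 11.1, 10.4, 7.83 and 7.80 TPM in MT, the largest fold change of the list (log2 1.09, SE 0.31). In all 3 genes every MT unit stood above every WT unit. Over the alternatives the log2 fold change ran from 0.0964 to 1.49 for Aurkb and from 0.0348 to 1.3 for Top2a. Of the 4 members below the minimum, Mki67, the proliferation marker Ki-67, averaged 0.556 ± 0.274 and 1.11 ± 0.395 TPM, and its WT unit 1 equalled MT unit 3 at 0.863 TPM. Bub1, a checkpoint kinase, was at 0.14 to 0.563 TPM in WT and 0.797 to 1.36 TPM in MT. Kif11, the spindle motor, averaged 0.672 and 1.17 TPM, and Cenpe, a kinetochore motor, 0.422 and 0.373 TPM.

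Among the replication genes, Mcm2 and Mcm3 belong to the helicase that unwinds DNA at origins. Mcm3 was at 3.50, 4.11, 4.43 and 5.50 TPM in WT and 7.38, 5.50, 6.22 and 7.80 TPM in MT (log2 0.52, SE 0.14). Mcm2 was at 29.4, 28.5, 31.9 and 30.1 TPM in WT and 34.8, 32.9, 34.1 and 36.1 TPM in MT (log2 0.20, SE 0.05). The MT units were above the WT units in both, though MT unit 2 barely so in Mcm3. Tyms, thymidylate synthase and the most abundant member, went the other way, with means of 67.1 and 65.7 TPM (log2 -0.05), as did the kinesin gene Kif23 (log2 -0.15).

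The count of 14 was 13 after median of ratios or quantile normalization, and it depended on some units. It was 20 of 37 with 5 libraries left out that held high levels of other cell types' transcripts, a choice made after seeing the data. It was 8 without MT unit 1 and 1 when only library 1 of each unit was used, where 28 of 37 still lay above 0. Among G1 genes, Cdkn1b, the CDK inhibitor p27, was at 8.46, 8.40, 9.46 and 9.94 TPM in WT and 6.79, 5.85, 4.87 and 3.64 TPM in MT, without overlap (log2 -0.70, SE 0.16, limma unadjusted p = 0.00173). Cdkn1c, the related inhibitor p57, averaged 4.49 ± 1.56 and 2.90 ± 0.63 TPM (log2 -0.47, 95% interval -0.94 to 0.00). The inhibitor genes Cdkn1a (0.01), Cdkn2c (0.02), Cdkn2d (-0.01) and Cdkn2b (-0.11) lay nearer 0. The 19 tested G1 cyclins and CDK inhibitors together had a median log2 fold change of 0.02. Cdkn1b was the only member under an unadjusted p of 0.05, or 1 of 19 against 4.55% of all genes.

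**Figure D4:**
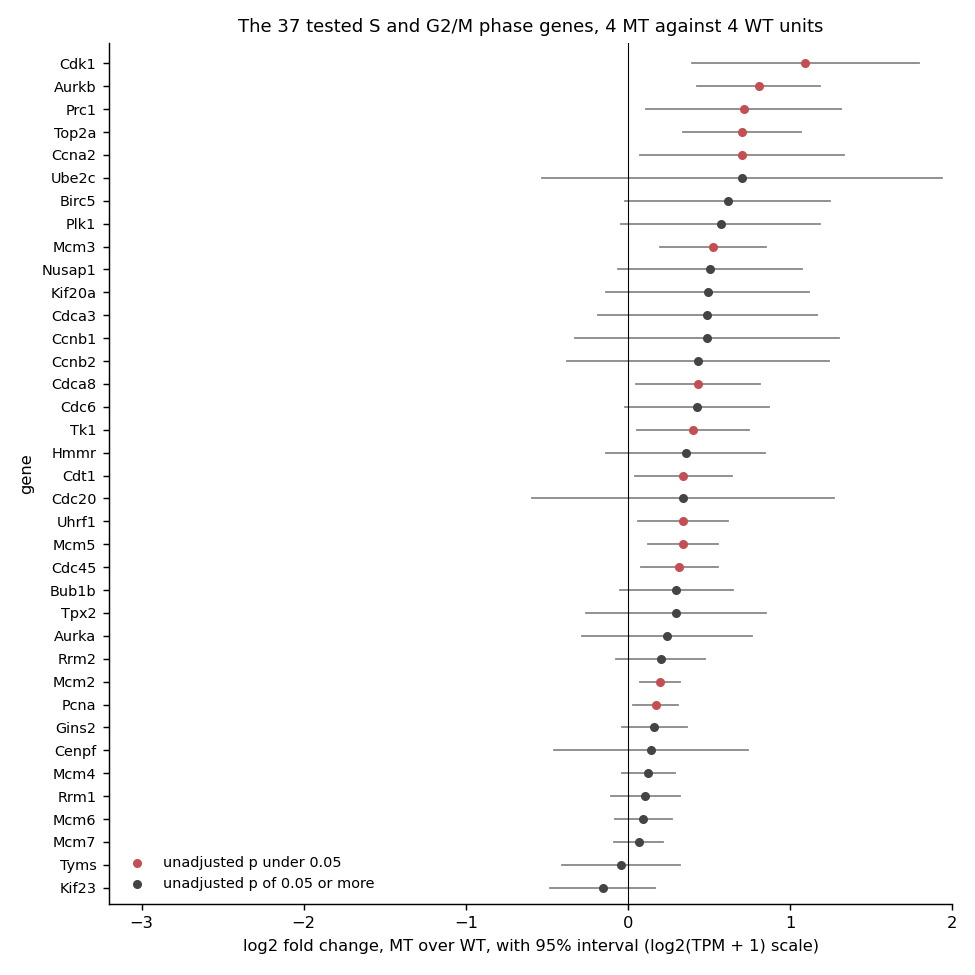
Log2 fold change of MT over WT (points) with its 95% interval (lines) for the 37 tested S and G2/M genes, in order of fold change, red where the unadjusted p was under 0.05. All but Tyms and Kif23 lie right of 0, and the 14 red points are all on the higher side.

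The promoter windows of 3 of these genes are shown because members of the list lay on the same side of 0 and the elements named above can be looked for in them. The sequences are from RefSeq on GRCm38.p6, 250 bases before to 50 bases after the transcript start, minus strand, 5′ to 3′, for Top2a at chr11:99024140-99024439, Mcm3 at chr1:20820263-20820562 and Cdk1 at chr10:69352863-69353162. Capitals mark the CHR letters TTTGAA, the CCAAT box CCAAT and the E2F letters TTCCCGC or TTGGCGC, on either strand.
Top2a: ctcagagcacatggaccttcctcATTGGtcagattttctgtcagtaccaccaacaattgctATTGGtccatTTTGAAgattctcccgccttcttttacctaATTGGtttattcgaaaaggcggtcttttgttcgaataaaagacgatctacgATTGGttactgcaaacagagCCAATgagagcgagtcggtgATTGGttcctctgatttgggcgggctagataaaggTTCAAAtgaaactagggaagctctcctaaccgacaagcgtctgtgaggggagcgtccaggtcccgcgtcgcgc
Mcm3: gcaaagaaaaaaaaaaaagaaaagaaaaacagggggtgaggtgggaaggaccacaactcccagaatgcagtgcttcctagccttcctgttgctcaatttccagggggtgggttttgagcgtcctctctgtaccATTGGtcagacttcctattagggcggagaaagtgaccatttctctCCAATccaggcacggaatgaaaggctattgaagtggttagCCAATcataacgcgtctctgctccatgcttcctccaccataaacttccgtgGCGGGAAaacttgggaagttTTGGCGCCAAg
Cdk1: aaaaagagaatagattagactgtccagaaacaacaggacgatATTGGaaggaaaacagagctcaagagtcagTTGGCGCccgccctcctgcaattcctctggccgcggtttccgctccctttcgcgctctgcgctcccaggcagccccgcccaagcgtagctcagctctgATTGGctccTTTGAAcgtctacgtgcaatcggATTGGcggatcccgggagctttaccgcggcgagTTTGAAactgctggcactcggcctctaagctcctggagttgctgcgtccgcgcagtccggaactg
Of the 37 tested genes, 31 had a window in the table. TTTGAA was in 16 of the 31 (51.6%), against 11.8% of the 10385 tested genes with a window, and CCAAT was in 25 (80.6%), against 38.8%. One or both E2F spellings were in 10 (32.3%), against 12.2%; some of these matches may overlap each other or a CCAAT box. The Top2a window held the CHR letters and the CCAAT box and neither E2F spelling. The Mcm3 window held the CCAAT box and both E2F spellings without the CHR letters. The Cdk1 window held the CHR letters, the CCAAT box and the spelling TTGGCGC. A match is a run of letters and not evidence of binding. The list was written from known cell-cycle genes, with earlier results of these data at hand. These shares therefore describe the list and not the difference between MT and WT. Of its members with a window, 12 had an unadjusted p under 0.05 by limma. TTTGAA was in 6 of the 12 (50%), CCAAT in 10 (83.3%) and an E2F spelling in 5 (41.7%), near the shares of the whole list.

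RNA of other nephron segments was uneven between libraries. All 7 thick ascending limb markers (median log2 fold change -1.87) and all 11 tested proximal tubule markers (median -1.35) were below 0. Of the 7, 1 had an unadjusted p under 0.05, against 1.92% of all genes lower at that p. It was Cldn16, a claudin of that segment (log2 -1.24, limma unadjusted p = 0.0281). High values sat in single libraries. Umod, uromodulin of the thick ascending limb, reached 2545 TPM in library 1 of WT unit 1, 1389 TPM in library 1 of WT unit 4 and 708.4 TPM in library 2 of WT unit 3. The MT libraries did not exceed 280.2 TPM. Slc34a1, the phosphate transporter of the proximal tubule, reached 600.7 and 571.5 TPM in libraries 1 and 2 of WT unit 3 and 400.9 TPM in library 3 of MT unit 4. These 5 libraries are those above 300 TPM in Umod, Slc34a1 or Hbb-bs, genes that belong to the summed lists. A smaller gap without them was therefore set by the choice and tests nothing. With all libraries, the thick ascending limb sum ran from 84.0 to 1876 TPM in WT and from 112.9 to 256.5 TPM in MT. With the 5 left out, it ran from 84.0 to 161.2 TPM in WT and from 112.9 to 281.0 TPM in MT. The proximal tubule sum ran from 97.4 to 2699 TPM in WT and from 41.8 to 767.2 TPM in MT with all libraries. With the 5 left out, it ran from 97.4 to 747.6 TPM in WT and from 41.8 to 512.1 TPM in MT. The groups overlapped in each case. In the connecting tubule, the segment upstream of the CCD, the 6 markers had log2 fold changes from -1.36 to 0.24. Of them 1 lay above 0, and 0 had an unadjusted p under 0.05 by limma. Their sums overlapped, at 533.8 to 2737 TPM in WT and 590.2 to 1967 TPM in MT. The lowest fold change was that of Klk1, a kallikrein, which ranged from 47.1 to 777.5 TPM in WT and from 41.2 to 256.6 TPM in MT.

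Haemoglobin transcripts differed most in size. All 5 erythrocyte genes were below 0, with none past the adjusted threshold. The 4 globin genes Hba-a1, Hba-a2, Hbb-bs and Hbb-bt had an unadjusted p under 0.05, against 1.92% of all genes lower at that p. Hba-a1 and Hba-a2 are near copies of each other, as are Hbb-bs and Hbb-bt, so reads could be split within each pair. All 4 were highest in WT unit 3 and do not count as independent observations. Hbb-bs was at 138.0, 94.1, 5295 and 40.5 TPM in WT and 0.377, 0.403, 1.33 and 47.2 TPM in MT. WT unit 3 stood far above the rest, with 1 library at 15860 TPM, and MT unit 4 lay within the WT range (log2 -5.92, SE 1.66, limma unadjusted p = 0.0066). Hba-a1 followed the same order, with 2488 TPM in WT unit 3 and 20.6 TPM in MT unit 4, just under the lowest WT unit at 20.7 TPM. Without the 5 libraries, which include the one of highest Hbb-bs, the erythrocyte sum was 12.7 to 151.0 TPM in WT and 1.16 to 104.6 TPM in MT. The S and G2/M sums had no overlap without them either, 302.2 to 355.8 TPM in WT against 377.5 to 415.1 TPM in MT. Macrophage and monocyte markers, whose summed abundance was 144.4 to 694.9 TPM in WT and 170.1 to 666.2 TPM in MT, overlapped between groups, with 7 of 12 tested above 0 (median log2 0.07). Endothelial markers lay above 0 in 9 of 9 tested (median 0.18), and their sums overlapped, at 169.1 to 324.4 TPM in WT and 224.0 to 282.9 TPM in MT. The part of these cells in any result was not tested.

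**Figure D5:**
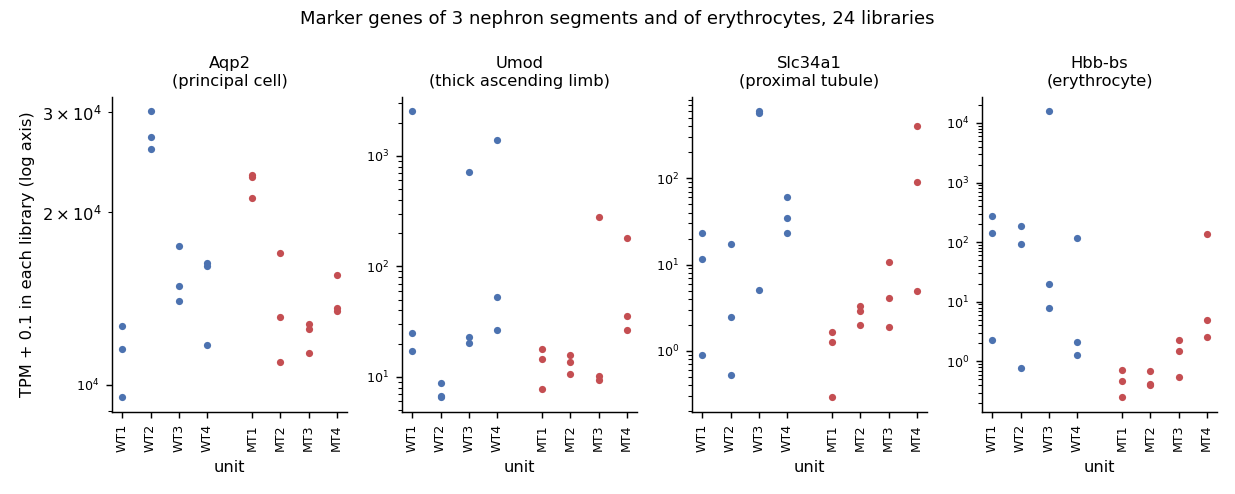
TPM + 0.1 (log axis) of 4 marker genes in each of the 3 libraries of every unit, WT in blue and MT in red. Aqp2 is highest in the 3 libraries of WT unit 2, whereas Umod, Slc34a1 and Hbb-bs are high in 1 or 2 libraries of a unit and low in the others.

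Stress programmes gave few genes. Immediate early genes, quickly switched on by handling or hormones, were below 0 in 20 of 21 tested, with a median of -0.33 and none under an unadjusted p of 0.05. Jun was at 671.5, 248.4, 246.1 and 659.4 TPM in WT and 346.0, 401.3, 288.2 and 142.5 TPM in MT. Dusp1, a phosphatase of MAP kinases, was high in the same WT units, at 148.6 and 130.5 TPM in units 1 and 4 against 20.5 to 75.6 TPM in the other 6. WT units 1 and 4 lay apart from WT units 2 and 3 in both genes, and the groups overlapped. Among 17 tested p53 target genes 2 were lower at an unadjusted p under 0.05, against 1.92% of all genes. Bax, a promoter of apoptosis, was at 143.1, 131.6, 132.3 and 139.2 TPM in WT and 123.2, 124.0, 122.4 and 117.5 TPM in MT, without overlap (log2 -0.16, SE 0.04, limma unadjusted p = 0.0058). The stress sensor Sesn2 had a log2 fold change of -0.22. In the unfolded protein response 1 of 23 was lower against the same share, the asparagine synthetase gene Asns (log2 -0.29), and the chaperone gene Hspa5 had a log2 fold change of -0.40 (95% interval -0.92 to 0.12). None of 20 heat shock genes had an unadjusted p under 0.05.

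Structural and metabolic lists gave small steps, and their counts at an unadjusted p under 0.05 stand against 2.63% higher and 1.92% lower over all genes. Actin cytoskeleton genes gave 4 of 26 higher at an unadjusted p under 0.05, with a median of 0.06: the tropomyosin genes Tpm3 (log2 0.16) and Tpm1 (0.13), Arpc5 of the Arp2/3 complex (0.14) and the GTPase gene Rhoa (0.13). Of 41 ribosomal protein genes 3 were higher and 1 lower, with Rpl6 at 143.8 to 150.5 TPM in WT and 124.5 to 136.1 TPM in MT (log2 -0.16) and Rpl5 (0.22), Rpl11 (0.18) and Rpl30 (0.24) on the higher side. Glycolysis gave 1 of 17, the phosphoglycerate mutase gene Pgam1, at 90.7 to 108.7 TPM in WT and 110.7 to 137.3 TPM in MT (log2 0.30). Nuclear genes of oxidative phosphorylation gave 2 of 40, Cox7b (0.26) and the cytochrome c gene Cycs (0.30), around a median of 0.01.

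Transcripts of the mitochondrial genome lay above 0 in 7 of 7 tested genes, 3 of them with an unadjusted p under 0.05, against 53.2% above 0 and 2.63% higher at that p over all genes. These were the complex I subunit genes mt-Nd1 (log2 0.35), mt-Nd2 and mt-Nd6 (0.36). Of them, mt-Nd2 was at 1366, 1081, 1529 and 1638 TPM in WT and 1442, 1649, 2111 and 2292 TPM in MT (log2 0.41, limma unadjusted p = 0.0453). MT units 3 and 4 stood highest and MT unit 1 lay within the WT range; when only library 1 of each unit was used the values of mt-Nd2 and mt-Nd6 turned to just below 0. The other 6 protein-coding genes of that genome, among them mt-Co2, mt-Co3 and mt-Atp6, are listed at 0 in every library.

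Other signalling lists gave 1 or 2 genes each at an unadjusted p under 0.05, to be read against 4.55% of all genes. In the Notch pathway, which divides principal from intercalated cells, 1 of 13 tested was higher, the ligand gene Jag2, at 0.833 to 1.02 TPM in WT and 0.963 to 2.24 TPM in MT (log2 0.45). In the TGF-β and BMP pathway, 2 of 21 tested, Bmp4 was lower (log2 -0.52, 95% interval -1.02 to -0.01), with MT unit 4 inside the WT range, and the receptor gene Bmpr2 was higher (log2 0.23). Vcam1, an adhesion molecule and the 1 of 14 tested inflammation genes, averaged 2.42 ± 0.60 and 3.91 ± 0.91 TPM without overlap (log2 0.52). The splicing list gave 2 of 26 on the higher side, Hnrnpa2b1 and the cold-shock protein gene Rbm3 (log2 0.29). None of the 20 collecting duct transcription factors had an unadjusted p under 0.05.

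Genes that answer to vasopressin in this segment were set beside the MT values. In the authors' deposited table for wild-type mice infused with dDAVP or saline for 5 days, 36 genes measured here were called higher and 16 lower with dDAVP. In MT against WT, 25 of the 36 had a log2 fold change above 0, with a median of 0.06, and 1 higher and 1 lower had an unadjusted p under 0.05. Of the 5031 tested genes that are also in the authors' deposited table, 2474 lay above 0. At that p, 160 of the 5031 were higher and 138 lower. The 16 were divided 8 and 8 around 0, with a median of -0.02. The higher gene was Mal2, an apical transport protein, from 448.7 to 541.4 TPM (log2 0.27, limma unadjusted p = 0.00256), and the authors' deposited table gives it a log2 of 1.17 with dDAVP. The lower one was Ddit4l, an inhibitor of mTOR signalling (log2 -0.29, limma unadjusted p = 0.0414), at 1.86 in the authors' deposited table. The cAMP-responsive factor Crem, at 2.68 in the authors' deposited table, was at 51.9 TPM in WT and 50.5 TPM in MT (log2 -0.04, 95% interval -0.28 to 0.19). For Abhd3, at 2.59 in the authors' deposited table, the difference was 0.31 (95% interval -0.10 to 0.72), and for Car15, at 2.31 there, it was 0.06 (95% interval -0.44 to 0.56). None of these intervals reached the size in the authors' deposited table. The sizes there are for dDAVP against saline and on another scale, so the 2 need not be alike. Whether MT ducts respond to dDAVP was not tested.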

How the data were processed

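Per the labels' protocols, cDNA was amplified by SMARTer V4 and tagged with Nextera XT. The submitters' processing notes list mm10, STAR and RSEM, giving no version. The deposited table holds TPM, the authors' length-scaled abundance; TPM keeps no depth, so the depth per library is unknown and no counting interval is given. From the dDAVP table, the adjusted p-value from DESeq and the log2 fold change are the authors' deposited values, and were copied.

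The 3 libraries of a unit were averaged, and genes with a mean of at least 1 TPM were tested two-sided on log2(TPM + 1) with limma 3.58.1 (empirical Bayes with trend) in R 4.3.3, 4 against 4 units, Benjamini-Hochberg adjustment over 15013 genes, threshold 0.05. The fold change of low genes is understated on this scale. The script was tested on simulated data. Groups were taken from the titles. Genes named by rule are the 20 of smallest p without predicted models (none passed), fixed duct and β-catenin genes, and up to 4 members of smallest p per list. Further genes, among them Cdk1, Tyms, Kif23, Mal2 and Ddit4l, were named for their values. The checks over alternatives and for outlying units cover only the genes named by rule. The members and lists were chosen with earlier results of these data known. Positions came from GRCm38.p6, where 92.1% of tested genes were placed. Alternatives covered pseudocount, minimum, scaling, averaging, single libraries, weights, the replicate block, and leaving out units or libraries. The ATAC-seq and dDAVP libraries were not analysed here. Results of some genes are not reported here.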

Additional observations from a re-analysis of the deposited data

Results flagged for a closer look

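In 12 of 194 gene-by-group sets of 4 units, counting each named gene in each group, 1 unit lay far from the other 3 relative to the whole range; chance alone gives about 1 in 20. WT unit 2 was the outlying unit for 4 genes: it was highest for Aqp4 (406.5 TPM), Kcnj1 (1334 TPM) and Lrp6 (36.7 TPM), and lowest for Nnt (90.5 TPM). WT unit 3 was highest for Hbb-bs (5295 TPM), Hba-a1 (2488 TPM) and Akap7 (40.7 TPM) and lowest for S100a14 (11.7 TPM). MT unit 4 was highest in its group for Hbb-bs (47.2 TPM) and Hba-a1 (20.6 TPM) and lowest for Axin1 (34.5 TPM). WT unit 1 was highest for Adam10 (36.2 TPM), a protease that cleaves Notch.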

How the results depend on the processing

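The count of genes at adjusted p under 0.05 was 0 as reported and in all alternatives except these: 1 gene with the unit as a random effect, 1 with library 1 of each unit only, 2 with library 3 only, and 0 to 5 without 1 unit. Besides Anp32a and Commd1b, the genes called were predicted models or small RNAs such as Snord13, each in 1 alternative. At unadjusted p under 0.05, limma gave 1555 genes without a minimum TPM (1039 higher, 516 lower) and 450 with a minimum of 10 TPM (245 higher). It gave 637 higher with library 2 only, 462 lower with library 3 only, and 571 to 1148 without 1 unit (335 to 697 higher, 236 to 451 lower), the highest without WT unit 2. The S and G2/M count was 1 with library 1 only and 8 to 17 without 1 unit, lowest without MT unit 1. In that list 28 genes lay above 0 with library 1 only, and 35 or 36 in every other alternative run. Same-numbered units did not deviate together (r from -0.03 to 0.04). With the number as a replicate block, 481 genes had an unadjusted p under 0.05 and 0 an adjusted one, and 15 S and G2/M genes were higher.

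Of 97 named genes, 79 kept the sign of their log2 fold change in every one of the 28 alternatives that gave them a value; low genes have none with a minimum of 5 or 10 TPM. With library 1 only, signs turned for Tubb5 (-0.0417), Aqp2 (0.0283), Foxi1 (-0.0253), Slc26a4 (0.00213), Nnt (-0.134), Tnks (-0.0488), Fzd2 (0.0342), Asns (0.0156), Rpl6 (0.00281), Cycs (-0.132), mt-Nd6 (-0.0613) and mt-Nd2 (-0.000842). With library 2 only, Ctnnb1 was at 0.0182. With library 3 only, Aqp3 (-0.0232), Avpr2 (-0.0724), Slc26a4 (0.0448) and Slc4a1 (-0.0876) turned. Foxi1 was at -0.0152 by median of ratios and -0.0201 by the median of 3 libraries. It was at -0.00958 without the 2 libraries richest in Umod, -0.00281 without the 3 richest in Slc34a1, and -0.0235 without all 5. Nnt was at -0.0589 by the median of 3 libraries and -0.0342 with array weights, and Aqp2 at 0.125 after quantile normalization. Without 1 unit, log2 fold changes ran from -0.0434 to 0.00455 for Ctnnb1, -0.289 to 0.153 for Aqp2, -0.0469 to 0.177 for Aqp3, -0.0111 to 0.875 for Aqp4, -0.0938 to 0.246 for Avpr2, -0.00417 to 0.0964 for Scnn1b, -0.0794 to 0.131 for Foxi1, -0.194 to 0.0459 for Slc26a4, -0.00971 to 0.356 for Slc4a1 and -0.0868 to 0.0831 for Nnt. The causes were not tested. Depth is unknown, and 4 units per group limit the precision of each value.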

Other observations

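Units of both groups shared an axis that the labels do not name. The first principal component of the 8 units held 26.1% of the variance and placed WT unit 3 (40.9) and MT unit 4 (28.3) at one end, and MT unit 1 (-31.7) and WT unit 2 (-22.6) at the other. The 2 units at the first end held the libraries of highest Slc34a1, and the 2 at the other end had the highest Aqp2, Aqp4 and Avpr2. These are values of single units, and whether a unit is an animal, a day of dissection or something else is not given in the sources used here.

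The interferon and antigen presentation lists, which the report does not describe, had 1 of 23 and 0 of 15 tested genes under an unadjusted p of 0.05 by limma, against 4.55% of all genes. The one was Gbp2, an interferon-induced GTPase, chosen here after its value was seen, at 3.52 TPM in WT and 7.89 TPM in MT (log2 0.91). The basement membrane list lay above 0 in 18 of 22 genes with a median log2 fold change of 0.08 and none under that p. The circadian clock list lay below 0 in 15 of 20, with a median of -0.10 and none under that p, and the tonicity list in 8 of 10, with a median of -0.14 and none under that p.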
